A study of Ovis aries with 16 samples.

Results

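The Toll-like receptors (TLRs), their co-receptor CD14 and the signaling proteins MYD88, IRAK4 and TRAF3 were measured in the hippocampus of fetal sheep a day after transient hypoxia, with or without ketamine given beforehand. The 10 genes followed were TLR2, TLR3, TLR4, TLR5, TLR6, TLR7, CD14, MYD88, IRAK4 and TRAF3. These genes were chosen by name from the probe annotation of an Agilent sheep microarray, with earlier results of these data known. They were 10 of the 896 gene names given there and held 20 of its 15008 probes, with 3 probes for TLR6, 1 for TLR5 and 2 for each of the others. All 20 probes were bright enough to be tested, and none was saturated or missing on any of the 16 arrays.

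Each array held RNA from 1 late-gestation sheep fetus with catheters in place. The NC group (3 arrays) stayed at normoxia and received no ketamine, and the NK group (4 arrays) stayed at normoxia after ketamine. The HC group (5 arrays) underwent hypoxia without ketamine, and the HK group (4 arrays) underwent hypoxia after ketamine. Hypoxia was a 30 min fall in the oxygen of the gas that the ewe breathed, ketamine, an NMDA receptor antagonist and anesthetic, was given at 3 mg/kg intravenously before the stimulus, and every fetus then spent 23.5 h at normoxia, so that tissue was taken at 24 h. All but 1 of the fetuses were twins, and the study assigned each pregnancy to normoxia or hypoxia, so that twins of a ewe had the same oxygen treatment. The labels do not say which fetuses shared a ewe. P-values therefore measure the spread between arrays and treat every array as a separate fetus, and any pairing of twins within normoxia or within hypoxia is ignored by the main fit. The tissue was whole hippocampus of 1 side of the brain, in which fewer cells of a type and less RNA per cell cannot be told apart.

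TLRs are membrane receptors that recognise products of microbes and of damaged cells. At the cell surface TLR4 responds to lipopolysaccharide, which CD14 delivers to it, TLR2 responds to lipoproteins as a partner of TLR1 or TLR6, and TLR5 responds to flagellin, while TLR3 and TLR7 sit in endosomes and respond to double-stranded and single-stranded RNA. MYD88 is the adaptor of all of these receptors except TLR3, IRAK4 is the kinase it recruits, and TRAF3 is a ubiquitin ligase of the interferon arm that also restrains other inflammatory signaling. In brain these receptors and CD14 are best known from microglia and infiltrating myeloid cells.

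The probes are 60 bases long, and whether the probes of a gene are independent readings depends on how far they overlap. The sequences below belong to the genes on which the results turn, and to TLR7, whose probes did not show the same differences. Capitals mark bases that both probes of the gene contain, and a sequence with no capitals shares no stretch of 20 or more bases with the other probe.
CD14 A_70_P030286: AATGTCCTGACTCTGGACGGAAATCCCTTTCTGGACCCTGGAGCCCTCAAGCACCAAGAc
CD14 A_70_P030287: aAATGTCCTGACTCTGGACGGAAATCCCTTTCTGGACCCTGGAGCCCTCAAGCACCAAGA
TLR2 A_70_P050916: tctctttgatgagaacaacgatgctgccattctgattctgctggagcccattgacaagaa
TLR2 A_70_P050917: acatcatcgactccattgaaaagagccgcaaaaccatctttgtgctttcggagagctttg
TLR4 A_70_P049612: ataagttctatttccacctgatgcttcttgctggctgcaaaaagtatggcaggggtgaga
TLR4 A_70_P049611: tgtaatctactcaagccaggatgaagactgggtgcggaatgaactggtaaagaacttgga
TLR7 A_70_P049646: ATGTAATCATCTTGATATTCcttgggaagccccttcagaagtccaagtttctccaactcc
TLR7 A_70_P049647: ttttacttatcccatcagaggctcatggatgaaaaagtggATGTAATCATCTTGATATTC

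The CD14 probes share 59 of their 60 bases and are in effect 1 reading, as are the TRAF3 probes, which also share 59. The TLR2 probes cover bases 2168 to 2227 and 2062 to 2121 of the transcript they were designed on, and the TLR4 probes also lie apart, so each of these genes has 2 separate readings. The TLR3 probes share 30 bases, and the TLR7 pair and the first 2 TLR6 probes share 20. The array's annotation assigns all 3 TLR6 probes to the TLR1 transcript as well, so their signal cannot be ascribed to TLR6 alone. TLR1 is the neighbour of TLR6, and TLR8 the neighbour of TLR7, in RefSeq's annotation of the sheep assembly ARS-UI_Ramb_v3.0. Each TRAF3 probe was designed on an expressed sequence tag and has a stop codon in all 3 forward reading frames, so the part of the gene it reports is not settled by the sources used here.

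Values are given as relative signal, the probe's brightness as a percent of the 75th percentile of all probes on the same array, and differences between groups as log2 values with their standard error (SE). A gene is represented by its brightest probe, levels are compared between groups and never between probes, and a probe passed the test where limma's moderated test gave an unadjusted p under 0.05, the criterion of the study's methods. Benjamini-Hochberg adjusted p-values over all 12541 probes tested are given beside it. The 75th percentile of intensity ran from 882 to 1199 over the arrays, and 76.7% to 82.6% of spots were well above background. Arrays are named by group and replicate, as in HC5. Each of the 2 slides held 8 arrays and all 4 groups, so every difference could also be taken within a slide. The only NC array on the second slide was NC3, so second-slide values of HC-NC, NK-NC and the interaction rest on that array for NC. The neuronal markers GRIN1, GRIA1, GRIA2, GRIA4 and SST were well above background on every array. Sums of choroid plexus markers ran from 125% to 9132% over the arrays and overlapped between groups, and none of these 5 markers passed the test in any comparison.

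After hypoxia without ketamine, 6 of the 10 genes passed the test against normoxia. CD14, TLR2, TLR4, TLR6 and MYD88 were higher in HC than in NC, TRAF3 was lower, and TLR3, TLR5, TLR7 and IRAK4 did not pass on their brightest probes. Over all probes tested, 4.55% passed as higher and 6.27% as lower. After adjustment 0.0159% of probes passed, which was 2 probes and none of the 20, whose smallest adjusted p was 0.14. CD14, TLR4 and TRAF3 had no overlap between HC and NC arrays, which held for 7.81% of all probes tested. The median difference of the 10 genes was 0.46, beside -0.03 over all probes.

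CD14, the co-receptor for lipopolysaccharide, showed the largest difference of the 10 genes between HC and NC. Its relative signal was 8.42%, 11.3% and 12.1% in NC and 8.40%, 11.7%, 10.6% and 12.95% in NK. It was 37.0%, 78.3%, 54.2%, 46.0% and 15.9% in HC and 37.9%, 22.5%, 10.4% and 14.96% in HK. Every HC array was above every array at normoxia, with HC5 well below the other HC arrays, and the HK arrays ran from the normoxic range up to the lower part of HC. Group means were 10.6% ± 1.91 (SD, n = 3) in NC, 10.9% ± 1.93 (SD, n = 4) in NK, 46.3% ± 22.9 (SD, n = 5) in HC and 21.5% ± 12.1 (SD, n = 4) in HK. The difference HC-NC was 1.97 (SE 0.45), or 3.92-fold, with an unadjusted limma p of 5.92e-04 and an adjusted p of 0.149, and it was 2.47 on the first slide and 1.5 on the second. The exact permutation p was 0.0357, the smallest that 5 against 3 arrays allow, as it was for TLR4 and TRAF3.

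TLR2, the receptor for lipoproteins, was read by 5 replicate spots of its brightest probe and by a second probe. Its relative signal was 5.65%, 7.02% and 11.4% in NC and 7.79%, 7.29%, 9.02% and 9.60% in NK. In HC it was 16.7%, 16.1%, 17.1%, 32.4% and 11.4%, and in HK it was 9.12%, 12.6%, 9.03% and 16.3%. The HC arrays lay above NC except that HC5 was level with NC3, and the HK arrays fell between the normoxic groups and HC with overlap on both sides. TLR2 was higher in HC than in NC by 1.20 (SE 0.30), or 2.29-fold, with an unadjusted limma p of 0.00142, an adjusted p of 0.184 and an exact permutation p of 0.0714. The difference was 1.38 on the first slide and 0.70 on the second. The second probe, which shares no stretch with the first, gave 1.27 (SE 0.34).

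TLR4, the lipopolysaccharide receptor, was dim but was well above background on every array with its brightest probe. Its relative signal was 2.41%, 2.40% and 3.44% in NC and 2.145%, 2.92%, 2.82% and 2.53% in NK. It was 4.23%, 8.01%, 4.96%, 7.19% and 4.96% in HC and 2.66%, 7.58%, 2.71% and 3.23% in HK. All HC arrays were above all normoxic arrays, whereas HK2 was at the level of the highest HC arrays and the other 3 were at or near the normoxic level. TLR4 was higher in HC than in NC by 1.07 (SE 0.31), or 2.10-fold, with an unadjusted limma p of 0.0038 and an adjusted p of 0.204, and by 1.28 and 0.71 within the slides. The second probe, not well above background on 1 NC array, gave 1.35 (SE 0.39).

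**Figure D1:**
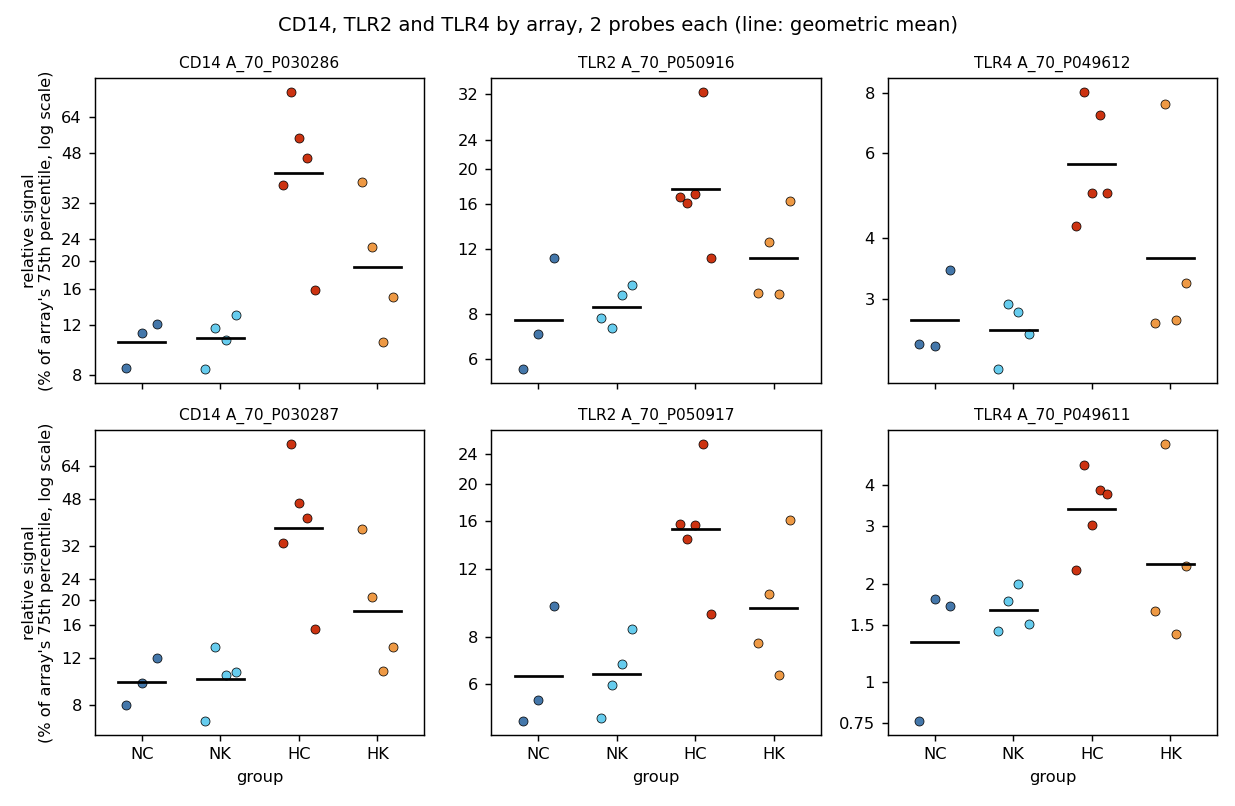
Relative signal (percent of each array's 75th percentile, log axis) of both probes of CD14, TLR2 and TLR4, with 1 point per array, the 4 groups on the horizontal axis and a line at the geometric mean. On the upper CD14 panel the HC arrays lie between 15.9% and 78.3%, above all NC and NK arrays (8.40% to 12.95%), and the HK arrays spread from 10.4% to 37.9%.

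The remaining surface receptors gave smaller differences. The TLR6 probe, which may also report TLR1, read 9.55%, 8.28% and 8.84% in NC and 9.49%, 18.2%, 13.7%, 9.53% and 15.2% in HC, so that 2 HC arrays were within the NC range. The difference was 0.53 (SE 0.23) with an adjusted p of 0.418 and an exact permutation p of 0.107, and of its other probes 1 gave 0.47 (SE 0.23) without passing and 1 gave 0.52 (SE 0.18), which passed. With any 1 of NC2, NC3, HC2, HC3 and HC5 left out, the TLR6 difference no longer passed (0.40 to 0.52). TLR5, the flagellin receptor, read 3.02%, 2.97% and 2.80% in NC, 2.91%, 1.80%, 1.88% and 1.74% in NK, 2.37%, 2.33%, 2.95%, 1.64% and 2.53% in HC, and 2.23%, 1.61%, 2.00% and 2.86% in HK. NC was the tightest and highest group, and the other groups overlapped one another. The TLR5 difference HC-NC was -0.34 (SE 0.21) and did not pass.

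Neither endosomal receptor passed between HC and NC. TLR3, the sensor of double-stranded RNA, ran from 17.7% to 21.4% in NC, from 16.1% to 39.0% in NK, from 16.4% to 27.8% in HC and from 14.6% to 28.8% in HK, and the groups overlapped throughout. Its differences were 0.24 for HC-NC, 0.18 for NK-NC, -0.02 for HK-HC and 0.03 for HK-NK, with SEs of 0.27 to 0.31 and none passed. TLR7, the sensor of single-stranded RNA, differed by 0.06 (SE 0.21) between HC and NC on its brightest probe and by 0.61 (SE 0.31) on the other, which passed without HC1 (0.75) or NC2 (0.80).

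MYD88, the shared adaptor, read 3.73%, 5.09% and 3.82% in NC and 4.86%, 6.18%, 5.60%, 5.18% and 6.47% in HC, where NC2 lay above the lowest HC array. The difference was 0.43 (SE 0.17) with an adjusted p of 0.378 and an exact permutation p of 0.0714, and the second probe gave 0.79 (SE 0.27), although it was well above background on 1 of the 3 NC arrays. The MYD88 difference no longer passed without NC1 (0.35), NC3 (0.37) or HC5 (0.38). IRAK4 read 5.17%, 5.12% and 5.37% in NC and 4.79%, 10.3%, 5.81%, 9.40% and 7.74% in HC, a difference of 0.49 (SE 0.26) that did not pass, although it did without HC1 (0.64), with array weights (0.59) and in the authors' log2 values (0.09). Its second probe gave 0.14 (SE 0.16).

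TRAF3 was the gene that went the other way. Its relative signal was 24.8%, 24.7% and 22.2% in NC and 17.7%, 17.5%, 22.5% and 16.6% in NK. It was 17.2%, 14.9%, 17.6%, 14.7% and 14.2% in HC and 20.4%, 15.04%, 21.2% and 17.6% in HK. Every HC array was below every NC array, and the NK and HK arrays spread from the HC range upward, with NK3 inside the NC range. TRAF3 fell by 0.61 on the log2 scale between NC and HC (SE 0.13), or 1.52-fold, with an unadjusted limma p of 4.21e-04 and an adjusted p of 0.14, and the difference was -0.63 and -0.52 within the slides. CD14, TLR2, TLR4 and TRAF3 each passed with any 1 array of HC or NC left out, with ranges of 1.74 to 2.31, 0.98 to 1.48, 0.95 to 1.25 and -0.66 to -0.57.

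**Figure D2:**
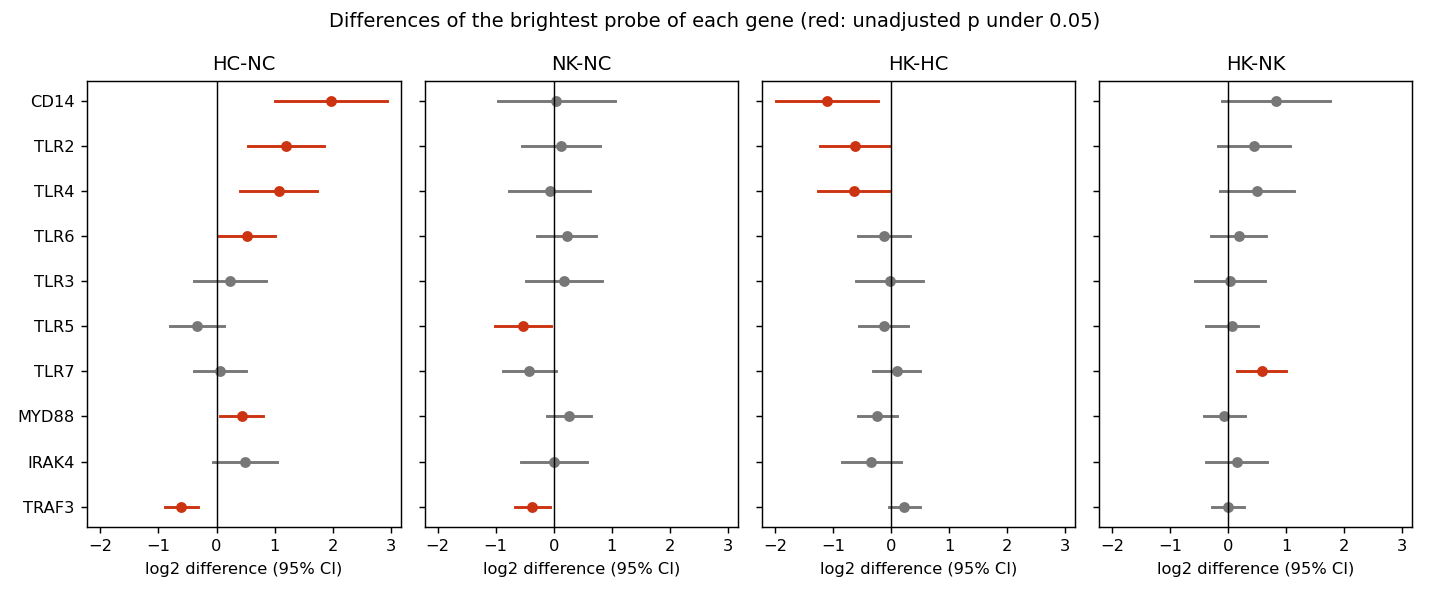
Log2 differences (horizontal axis, with 95% confidence intervals) of the brightest probe of each of the 10 genes in the 4 comparisons, red where the unadjusted limma p was under 0.05. In HC-NC 5 genes lie to the right and TRAF3 to the left at -0.61, and in HK-HC CD14, TLR2 and TLR4 lie to the left between -1.099 and -0.63.

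In hypoxic fetuses ketamine went with lower CD14, TLR2 and TLR4, and with no other of the 10 genes past the test. Between HK and HC these 3 genes passed, all lower in HK, where 1.87% of all probes tested passed as lower. After adjustment 0% of probes passed (limma, 0 of 12541), and these 3 genes had an adjusted p of 0.969. None of the 10 genes was without overlap between HK and HC, which held for 1% of all probes. The median of the 10 genes was -0.18, beside 0.02 over all probes. Because HK-HC and HC-NC share the 5 HC arrays, a high HC group enters both with opposite sign.

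CD14 fell by 1.099 from HC to HK (SE 0.41), with -0.88 on the first slide and -1.45 on the second. TLR2 fell by 0.63 (SE 0.28), with -0.62 and -0.60 within the slides, and its second probe gave -0.68 (SE 0.31). TLR4 fell by 0.64 (SE 0.28), with -0.37 and -0.92 within the slides, while its second probe gave -0.56 (SE 0.36), which did not pass, although it did without HK2 (-0.96) and with array weights (-0.81). The unadjusted limma p was 0.0181 for CD14, 0.0407 for TLR2 and 0.0402 for TLR4, and exact permutation p-values were 0.0952 for CD14 and 0.111 for both receptors, where 0.0159 is the smallest that the design allows. Without HK3 none of the 3 passed (-0.81, -0.52 and -0.50 for CD14, TLR2 and TLR4). CD14 also missed without HC2 (-0.87) or HK4 (-0.98), TLR4 without HC2, HC4, HK1 or HK4 (-0.59 to -0.49), and TLR2 without HC1, HC3, HC4, HK1 or HK2 (-0.67 to -0.41). Fitted with the HC and HK arrays alone, none of the 3 passed.

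Among the genes that did not pass between HK and HC, TRAF3 differed by 0.23 (SE 0.12), IRAK4 by -0.34 (SE 0.24), MYD88 by -0.24 (SE 0.16), TLR5 by -0.13, TLR6 by -0.12 and TLR7 by 0.10. For TRAF3 the 95% confidence interval of the difference ran from -0.03 to 0.49, and it passed without HK2 (0.33) and with array weights (0.29). IRAK4 passed without HC1 (-0.49).

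Without hypoxia, ketamine left CD14, TLR2 and TLR4 at differences of 0.05 (SE 0.47), 0.13 (SE 0.32) and -0.07 (SE 0.33) between NK and NC, and the groups overlapped for each. TLR5 and TRAF3 passed, both lower in NK, where 1.07% of all probes tested passed as lower. After adjustment 0% of probes passed (limma, 0 of 12541), and every member had an adjusted p of 1.00. The median of the 10 genes was 0.03, beside 0.00 over all probes. TLR5 fell by 0.53 (SE 0.22), with NK1 inside the NC range and the other 3 NK arrays below it. When each array was left out in turn it passed only without NK1 (-0.70), and gave -0.56 to -0.45 without NC1, NC2, NC3, NK2, NK3 or NK4. TRAF3 fell by 0.37 (SE 0.14), with -0.49 and -0.20 within the slides, and no longer passed without NC1 (-0.34), NC2 (-0.35) or NK4 (-0.32). The exact permutation p was 0.114 for both genes.

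TLR7 was the gene without overlap between NK and NC on its brightest probe, a pattern of 3.52% of all probes tested. It read 2.25%, 2.24% and 2.147% in NC and 2.11%, 1.41%, 1.30% and 1.95% in NK, a difference of -0.42 (SE 0.22) that did not pass, although it did without NK1 (-0.54) and with array weights (-0.46). The second TLR7 probe overlapped and differed by 0.07. The second probe of IRAK4 also had no overlap, with 5.46%, 5.71% and 4.65% in NC and 3.86%, 3.95%, 4.14% and 3.47% in NK. Its difference was -0.45 (SE 0.16), which passed but not without NC2 (-0.39), while the brightest IRAK4 probe differed by 0.01 (SE 0.27), so the probes of this gene did not show the same difference. For 3 against 4 arrays the smallest exact permutation p is 0.0571. Treating NC and NK arrays that share a replicate number as pairs, although such a pairing is not settled, changed some calls. The TLR5 difference then did not pass (-0.45), the TLR7 difference did (-0.50), and the second probe of IRAK4 did not (-0.40).

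Among ketamine-treated fetuses, hypoxia went with a difference past the test in 1 of the 10 genes, TLR7, which was higher in HK than in NK. Of all probes tested, 2.81% passed as higher and 2.46% as lower in this comparison, and 0% passed after adjustment (limma, 0 of 12541). TLR7 read 2.32%, 2.94%, 2.17% and 2.49% in HK, all above the 4 NK arrays given above, and 3.33% of all probes tested had no overlap between HK and NK. The difference was 0.57 (SE 0.20), or 1.49-fold, with an unadjusted limma p of 0.0124 and an adjusted p of 0.9, and it was 0.60 and 0.55 within the slides. Its exact permutation p was 0.0286, the smallest that 4 against 4 arrays allow. The second TLR7 probe, which shares 20 bases with the first, read 1.35%, 2.58%, 1.18% and 2.31% in HK against 1.5%, 1.12%, 1.33% and 2.34% in NK, overlapped, and differed by 0.21 (SE 0.30) with an exact permutation p of 0.6. The mean of both probes gave 0.39 and did not pass, nor did TLR7 in the authors' log2 values (0.04). The HK and HC arrays of TLR7 overlapped, at 2.11%, 1.94%, 2.61%, 1.77% and 3.40% in HC.

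The genes that passed between HC and NC did not pass between HK and NK. CD14 differed by 0.82 (SE 0.43), by 1.56 on the first slide and 0.09 on the second, and passed without HK3 (1.12). TLR2 differed by 0.45 (SE 0.29) and TLR4 by 0.50 (SE 0.30). TRAF3 differed by -0.01 (SE 0.13), MYD88 by -0.07 and TLR6 by 0.18. The second IRAK4 probe had no overlap and was higher in HK by 0.33 (SE 0.15), which passed, while the brightest gave 0.14 (SE 0.25). The median of the 10 genes was 0.16, beside -0.01 over all probes.

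Whether the hypoxia difference changed with ketamine was tested by the interaction, HK-NK minus HC-NC. TRAF3 was the 1 gene of the 10 that passed, with 0.60 (SE 0.19), an unadjusted limma p of 0.00564 and an adjusted p of 1.00, and it passed with any 1 of the 16 arrays left out (0.54 to 0.70). In this interaction 3.44% of all probes tested passed in either direction, and 0% after adjustment (limma, 0 of 12541). The interaction of TRAF3 was 0.62 and 0.52 within the slides, and 0.54 (SE 0.19) on its second probe, which passed. The group means show the pattern, at 23.9% ± 1.5 (SD, n = 3) in NC, 18.6% ± 2.67 (SD, n = 4) in NK, 15.7% ± 1.54 (SD, n = 5) in HC and 18.6% ± 2.80 (SD, n = 4) in HK. Because HC-NC, NK-NC and the interaction share the 3 NC arrays, a high NC group enters each of them. For CD14 the interaction was -1.15 (SE 0.62), for TLR2 -0.75 (SE 0.42), for TLR4 -0.58 (SE 0.43), for MYD88 -0.50 (SE 0.24) and for TLR7 0.52 (SE 0.29), and none of these passed. The 95% confidence interval ran from -2.48 to 0.19 for CD14 and from -1.66 to 0.15 for TLR2. Some of these calls depended on 1 array. The interaction passed for CD14 without HC5 (-1.49) or HK1 (-1.48), for TLR2 without NC3 (-1.04), HC5 (-0.91) or HK4 (-0.93), for TLR4 without HK2 (-0.93), for TLR7 without NK1 (0.63) or HC5 (0.66) and for MYD88 without NC2 (-0.64), NK1 (-0.59), HC1 (-0.55) or HK2 (-0.57).

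**Figure D3:**
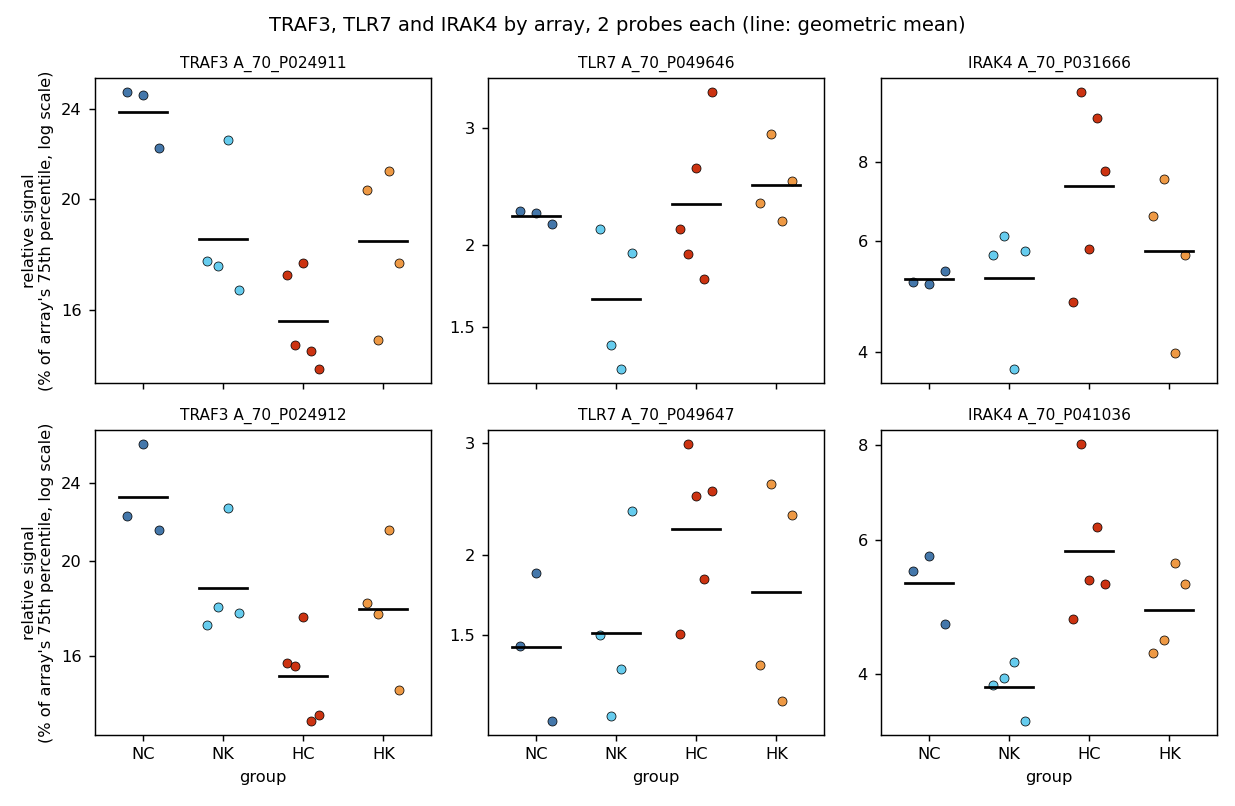
Relative signal (percent of each array's 75th percentile, log axis) of both probes of TRAF3, TLR7 and IRAK4, with 1 point per array and a line at the geometric mean of each group. Both TRAF3 probes show HC below NC, whereas the HK arrays lie above the NK arrays on the upper TLR7 panel (2.17% to 2.94% against 1.30% to 2.11%) and overlap on the lower one.

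The group means of CD14, TLR2 and TLR4 can be put in order within each gene. For CD14 and TLR2 the order was NC, NK, HK and HC, with mean TLR2 signals of 8.02%, 8.42%, 11.8% and 18.7%, and for TLR4 it was NK, NC, HK and HC, with 2.60%, 2.75%, 4.05% and 5.87%. For CD14 and TLR2 the neighbours NC and NK, and the neighbours NK and HK, did not differ past the test, while HK and HC did. For TLR4 the neighbours HK and HC differed past the test and NK and NC did not, and the difference between NC and HK was not tested.

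How the other genes of the pathway behaved was read from a list of 92 genes, chosen with earlier results of these data known. It was made of receptors, adaptors and kinases, transcription factors and brakes, and induced products. The annotation names 29 of the 92 genes, and 25 could be tested. In HC-NC 10 of the 25 passed, all higher, with 20 of 25 above 0 and a median of 0.55, beside 4.55% higher, 6.27% lower and a median of -0.03 over all probes tested. Of the 6 transcription factors and brakes, 3 passed, namely IRF1 (2.81, SE 0.78), the interferon regulatory factor, NFKBIA (1.30, SE 0.35), the inhibitor that holds NF-kB in the cytoplasm, and CEBPB (1.25, SE 0.47). Of the 17 products, 6 passed, namely the chemokines CXCL10 (4.70, SE 1.63) and CXCL8 (3.76, SE 1.19), the adhesion molecule ICAM1 (2.74, SE 0.69), the cytokines TNF (2.24, SE 0.70) and IL1B (1.17, SE 0.34), and the interleukin-1 receptor antagonist IL1RN. For IL1RN all NC arrays were at background, which gives a bound of at least 3.94-fold between HC and NC. Of the 2 adaptors and kinases, RAC1 passed at 0.25 (SE 0.10) and AKT1 differed by 0.00. The smallest adjusted p of these 10 genes was 0.181, and PTGS2 (-1.20, SE 0.91), IL6 (-0.44, SE 0.53) and IL12A (-0.44, SE 0.55) were below 0 without passing.

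In HK-HC, which shares the HC arrays, 4 of the 25 passed, all lower, with a median of -0.33, beside 1.87% lower and a median of 0.02 over all probes tested. They were CEBPB (-1.09, SE 0.43), IL1B (-0.83, SE 0.32), TNF (-1.52, SE 0.64) and IL1RN (-1.21, SE 0.55). TNF and IL1RN were each well above background on 2 of the 4 HK arrays. In NK-NC none passed, at an unadjusted limma p under 0.05 or adjusted, and the median was 0.02. In HK-NK IRF1 (1.75), CXCL10 (3.72) and IL1RN (1.32) passed as higher and CD80 (-0.47) and IL12A (-1.31) as lower, with a median of 0.46, beside 2.81% higher and 2.46% lower over all probes. IL1RN was well above background on 1 of the 4 NK and 2 of the 4 HK arrays. None passed in the interaction, with a median of -0.41. Of the receptors outside the 10 genes, the 1 probe of TLR1 was well above background on 1 array, of HC, the 2 probes of TLR8 on 2 arrays and on none, and the 2 probes of TLR9 on none, so they were not tested.

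**Figure D4:**
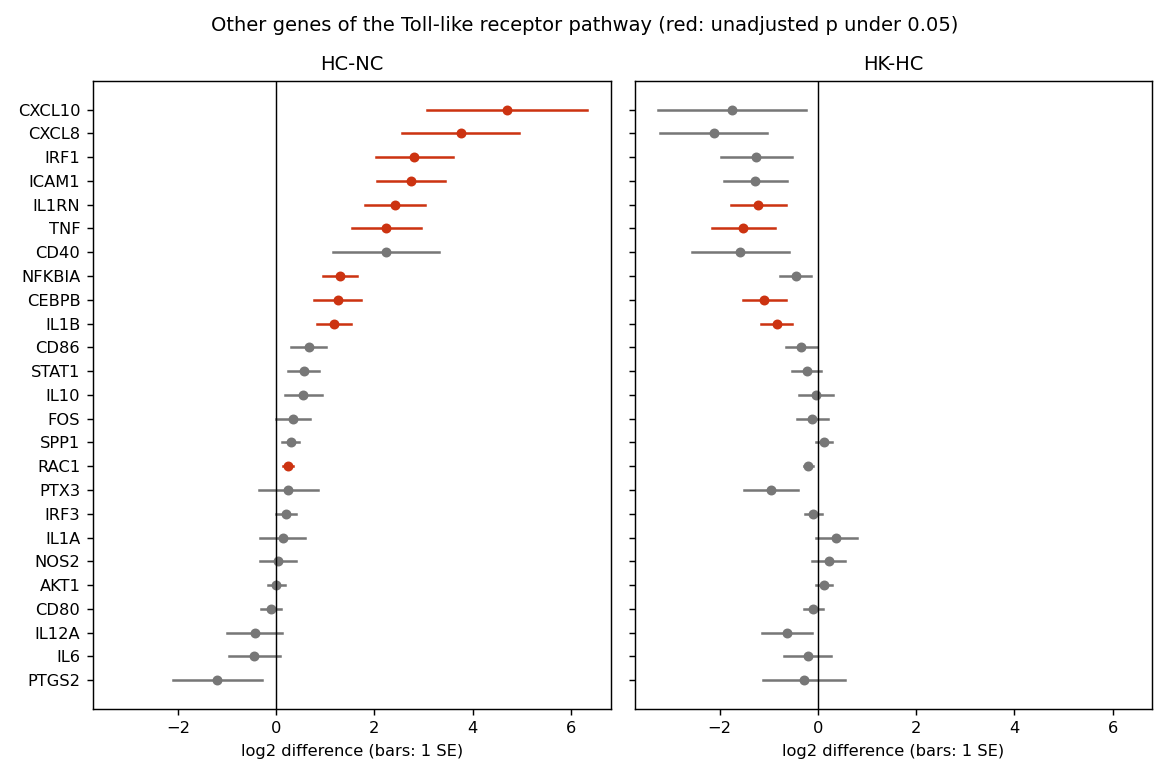
Log2 differences (horizontal axis, bars of 1 SE) of the 25 other tested genes of the TLR pathway in HC-NC and HK-HC, red where the unadjusted limma p was under 0.05. In HC-NC 10 genes lie to the right in red, from RAC1 at 0.25 to CXCL10 at 4.70, and in HK-HC TNF, IL1RN, CEBPB and IL1B lie to the left in red. The HC-NC value of IL1RN rests on NC arrays at background and is not a measured fold.

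Markers of microglia and macrophages, the cells best known for these receptors, were read from a further list. Of the 27 genes listed, 8 were on the array and tested (CTSS, CYBB, FCER1G, FCGR1A, FCGR2B, ITGAM, ITGB2 and LYZ), and defining markers such as AIF1, P2RY12 and TMEM119 were named by no probe in the annotation used here. In HC-NC FCER1G (0.72, SE 0.27) and FCGR1A (1.13, SE 0.44) passed as higher, where 4.55% of all probes tested did. The differences of CTSS, CYBB, ITGAM, ITGB2 and LYZ, which did not pass, were also above 0. The median of the 8 was 0.92, or 0.58 with CYBB and FCGR2B, which no NC array measured well above background, at their bound. FCGR2B was well above background on 3 HC arrays, 1 NK array and no HK array. It entered the test only through HC, so its direction in HC-NC and HK-HC carries no weight. The medians in HC-NC and HK-HC nonetheless include it, as they are taken over all 8 markers. Their summed relative signal ran from 277% to 347% in NC, 286% to 320% in NK, 286% to 760% in HC and 317% to 668% in HK. In HK-HC FCGR1A passed (-0.996, SE 0.40), with a median of -0.31 over the 8, where LYZ was above 0 (1.68) without passing, and in HK-NK LYZ passed (3.33, SE 1.17). Of all probes tested, 1.87% passed as lower in HK-HC and 2.81% as higher in HK-NK. FCGR1A also passed in the interaction (-1.31, SE 0.61), where 3.44% of all probes tested passed in either direction. The part of these markers in the receptor results was not tested.

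**Figure D5:**
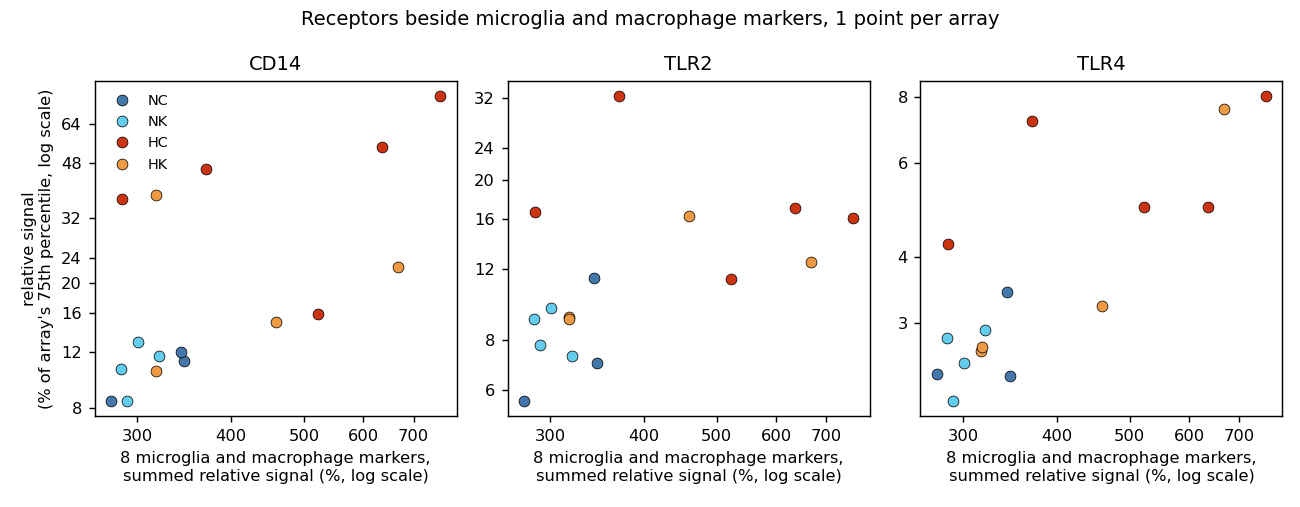
Relative signal of CD14, TLR2 and TLR4 (vertical axes, percent of each array's 75th percentile, log scale) against the summed relative signal of 8 microglia and macrophage markers (horizontal axis, percent, log scale), with 1 point per array colored by group. The NC and NK arrays cluster at the lower left, with sums of 277% to 347%, and the HC arrays have higher CD14 at sums from 286% to 760%.

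Single markers of other cell types also passed. Over all probes tested, 4.55% passed as higher and 6.27% as lower in HC-NC, 2.86% as higher in HK-HC and 2.81% as higher in HK-NK. In the interaction 3.44% passed in either direction. The neutrophil genes LTF and CATHL3 summed to 9.26% to 28.7% in NC, 5.40% to 26.9% in NK, 27.8% to 579% in HC and 29.5% to 720% in HK, passing in HK-NK (1.98 and 4.42) and not in HC-NC, and the neutrophil markers S100A8, S100A9 and MPO were not tested. SELP, an adhesion molecule of activated endothelium and platelets, passed in HC-NC (4.15, SE 0.98) and HK-NK (2.52, SE 0.95), while the other 3 endothelial genes did not pass in either, at 0.08 and 0.23 for PECAM1, 0.10 and 0.57 for FLT1 and -0.46 and -0.37 for KDR. Of 19 neuronal genes listed, 5 were on the array and tested, and general markers such as SNAP25, SYP and RBFOX3 were named by no probe. In HC-NC 4 of the 5 passed as lower, all of them glutamate receptor subunits, and the median of the 5 was -0.66. Their summed signals were 3215% to 3753% in NC and 693% to 3800% in HC, where HC5 was the lowest and the next lowest array was at 2445%. In HK-HC the neuronal markers had a median of 0.36, all 5 above 0, and GRIA4, a glutamate receptor subunit, passed there (0.37, SE 0.14), in HK-NK (0.31, SE 0.14) and in the interaction (0.66, SE 0.20). In HC-NC 1 of 5 astrocyte markers, GJA1 (0.46), and 1 of 2 red blood cell genes, AHSP (2.51), also passed, while HBB differed by 0.43 without passing. Their part in the differences of the receptors was not tested.

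The probes of a gene followed each other to different degrees in the 9 genes that had more than 1. Over the 16 arrays the correlation of log2 signals between the probes of a gene was 0.99 for CD14, 0.98 for TLR2, 0.96 for TLR3, 0.91 for TLR4 and 0.90 for TRAF3, and 0.72 to 0.86 for TLR6. It was 0.78 for MYD88, 0.51 for TLR7 and 0.43 for IRAK4. Between genes, CD14, TLR2 and TLR4 correlated at 0.75 to 0.77 across arrays, and at 0.29 to 0.44 once each group's mean was removed. These correlations describe 16 arrays that share their groups and carry no test.

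Among 626 other named genes measured on every array, the signal most like that of CD14 was PDXK (r = 0.96 over 16 arrays), followed by SLC11A1, a transporter of phagosomes (0.92), and IGFBP3 (0.92). For TLR2 they were IRF2 (0.91), MCL1 (0.84) and ICAM1 (0.83), and for TLR4 CD5 (0.94), IRF1 (0.90) and PSME2 (0.89). After removal of the group means PDXK, IRF2 and CD5 stood at 0.87, 0.80 and 0.89. For TLR6 the closest was FCER1G (0.86), an Fc receptor subunit of myeloid cells, for TLR3 PDIA5 (0.83), for IRAK4 PSME2 (0.84), for MYD88 CHI3L1 (0.73), for TLR7 TRA2A (0.74) and for TRAF3 PPP1R12A (0.92). TLR5 had no close match, the highest being BAX at 0.69.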

How the data were processed

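RNA of fetal hippocampus was hybridised to 16 single-color (Cy3) Agilent sheep arrays on 2 slides. Scanner files as deposited hold the processed signal intensity of each spot, corrected for background by Feature Extraction. The authors also deposited log2 values, whose columns all had a median near 8.66 and which ranked spots almost as mean minus background intensity did. They were used as an alternative, and their centring is that of quantile normalization, by comparison with the scanner values. The labels name limma and R 2.15.1.

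Here R 4.3.3 with limma 3.58.1 took log2 of the processed intensity minus each array's 75th percentile, averaged spots of a probe, and tested the 12541 probes that were well above background (over 13 SD of the background, per Feature Extraction) on at least 3 arrays. All groups entered 1 fit, without covariates. The study's methods use an unadjusted p under 0.05 from limma. The number of arrays limits the precision. The members and lists were chosen with earlier results of these data known. Named were all 10 genes, list genes past the criterion, and the 3 most alike genes per member. Other genes named as counterexamples were chosen after their values were seen.

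The 3 NC and NK arrays of the same number deviated together from their group means (r = 0.20 to 0.46, other numbers -0.12 on average). However, NC3 was closer to NK4 (0.315) than to NK3 (0.20), and these arrays were all on the second slide, so a pairing by number is not settled. HC and HK arrays of the same number did not all deviate together (0.10 to 0.51, 3 of 4 over 0.1). Alternatives were other background corrections and normalizations, filters, slide and replicate blocks, array weights, each array left out, and exact permutation tests. The test was checked on simulated data. The sequences of the TLR6 probes are not reported here.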

Additional observations from a re-analysis of the deposited data

Results flagged for a closer look

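In 3 of 60 probe and group combinations 1 array stood apart from the rest of its group, about the 1 in 20 that chance gives. TLR5 in NK1 read 2.91%, beside 1.74% to 1.88% in the other NK arrays and 2.80% to 3.02% in NC. The brightest IRAK4 probe in NK3 read 3.76%, beside 5.69% to 6.09%. The second TRAF3 probe in NK3 read 22.6%, beside 17.2% to 17.9%, and lay within the NC range.

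The interaction of TRAF3 passed the unadjusted test, at 0.603 on its brightest probe and 0.538 on the other, which shares 59 of 60 bases with it. In either direction 3.44% of all probes tested passed this interaction. It reversed with normexp background correction (-0.041 and -0.23), though not with local background limited. The adjusted p in limma was 1.00 for both.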

How the results depend on the processing

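In the main analysis 6 genes passed in HC-NC, 3 in HK-HC, 2 in NK-NC, 1 in HK-NK and 1 in the interaction, and the same numbers passed with median scaling, with no filter on dim probes and with the slide as a block. With adjusted p-values under 0.05, 0 of the 10 genes passed in each of the 5. The exact permutation test passed 3 genes in HC-NC and 0 in HK-HC. Normexp background correction passed 2 in HC-NC and 0 in NK-NC, HK-HC and HK-NK, and its all-probe medians moved to 0.34 in HC-NC, 0.28 in NK-NC and -0.31 in the interaction. With it CD14 passed in the interaction (-1.32 and -1.33 on its probes) and TRAF3 did not. TRAF3 reversed with this correction to 0.10 and 0.19 on its probes in HC-NC, to 0.13 and 0.28 in NK-NC and to -0.041 and -0.23 in the interaction. In NK-NC TLR5 reversed to 0.78 and the second IRAK4 probe to 0.69. A few spots had a local background of up to 65531, and with local background limited, a setting chosen after seeing the data, none of these reversed, while 1 gene passed in NK-NC and 0 in HK-NK, TLR6 (0.34) and MYD88 (0.14) missed in HC-NC, and in HK-HC TLR2 (-0.38) and TLR4 (-0.22) missed and TRAF3 (0.23) passed. Quantile normalization passed 1 in NK-NC and 2 in the interaction. The authors' log2 values passed 1 in NK-NC, 1 in HK-HC and 0 in HK-NK, and MYD88 missed in HC-NC (0.07). Requiring signal on all 16 arrays passed 1 in NK-NC, the mean of a gene's probes 0 in HK-NK and not TLR4 in HK-HC (-0.60), the compared groups alone 0 in HK-HC and not TLR6 in HC-NC (0.53), and array weights 5 in the interaction. The cause of these changes was otherwise not tested. With each array left out in turn, 4 to 7 genes passed in HC-NC, 0 to 3 in NK-NC, 0 to 3 in HK-HC, 1 to 2 in HK-NK and 1 to 4 in the interaction.

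When the fit of all groups held a replicate block, although the labels do not tie numbers to shared animals, 1 gene passed in NK-NC, 3 in HK-NK (TLR2 at 0.45 and CD14 at 0.82 besides TLR7) and 4 in the interaction (TLR2 at -0.75, CD14 at -1.52 and TLR7 at 0.66 besides TRAF3), and TLR6 missed in HC-NC (0.45). Over single probes, these alternatives, that with limited local background left out, left the call unchanged in 1897 values, lost it in 109 and gained it in 56. In 8 values a difference that passed in the main analysis reversed. Differences that did not pass could change sign and still count among the 1897. For TLR5 in HC-NC the difference ran from -0.38 to 0.94 over the alternatives other than leaving an array out. The number of arrays, and signal near background for the second probes of TLR4, TLR7 and MYD88, limit the precision.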

Other observations

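The receptor levels of single arrays did not move as 1 block after hypoxia. HC5, lowest of its group for CD14 (15.9%) and TLR2 (11.4%), had the highest MYD88 (6.47%) of that group. It also had the highest TLR7 on the brightest probe (3.40%), whereas on the second TLR7 probe HC2 was highest (2.98%, beside 2.52% in HC5). HC4 had the highest TLR2 of all 16 arrays (32.4%) beside the lowest TLR5 (1.64%) of HC. In HK, HK1 had the highest CD14 (37.9%) and HK2 the highest TLR4 (7.58%) of that group.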
